A study of Mus musculus with 2 samples.

Results

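Nuclear genes of the mitochondrial respiratory chain were followed in DNase I-seq maps of whole mouse thymus. The members were the nuclear protein-coding genes of GENCODE M21 whose symbols start with Nduf, Uqcr, Sdha, Sdhb, Sdhc, Sdhd, Cox4, Cox5, Cox6, Cox7, Cox8 or Atp5, which gave 98 gene entries with 97 different symbols among 21938 protein-coding genes. They comprised 36 subunits of complex I, 4 of complex II, 8 of complex III, 20 of complex IV, 16 of complex V, 12 assembly factors, the ATP synthase coupling factor gene Atp5s and a readthrough entry also named Atp5o. Both thymus samples came from male B6CASTF1/J mice aged 2 months, the F1 cross of C57BL/6J and CAST/EiJ, and formed 1 group of 2 replicates with no treatment and no control. The labels number a separate animal for each sample but give both the same donor identifier. With 1 group of 2 samples, and with members chosen while results of these data were known, values are described beside those of all protein-coding genes and no test was made.

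The respiratory chain moves electrons from NADH and succinate through complexes I and II to ubiquinone, through complex III to cytochrome c, and through complex IV to oxygen, and complex V (ATP synthase) uses the resulting proton gradient to make ATP. A few subunits are encoded in mitochondrial DNA and the rest in the nucleus, so that nuclear promoters have to supply matched amounts of many proteins. The factors NRF1, the ETS factor GABP (also called NRF2) and YY1 are textbook regulators of these promoters, and several complex IV subunits have additional isoforms known mainly from heart and muscle, lung, testis or hypoxic cells.

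DNase I cuts DNA where it is accessible, and each deposited peak carries a signal score that rises with cutting. The promoter score of a gene was the highest score among strict peaks within 1000 bp of any of its annotated transcription start sites (TSSs), and a promoter was called accessible when it had such a peak in both replicates. Replicate 1 held 63832 strict peaks and replicate 2 held 67929, with a median peak score of 1.58 and 1.37. The sequencing depth is not stated in the files. Scores ran higher in replicate 1, by a median of 0.37 on the log2 scale over all accessible coding genes and 0.34 over the members, and 83 of 90 accessible members were higher in replicate 1. The promoters of all 8 thymocyte markers examined (Cd3e, Cd3d, Cd8a, Cd4, Lck, Rag1, Ptcra and Tcf7) were accessible, against 59.0% of all protein-coding genes.

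Respiratory chain promoters were accessible with few exceptions. A strict peak was present in both replicates at 90 of 98 members (91.8%), against 59.0% of all protein-coding genes. The members' median score was 9.08 with inaccessible genes set to 0, against 1.96 over all coding genes. Among accessible promoters the members' median was 9.35 (interquartile range 6.78 to 11.3), against 6.83 (3.36 to 10.7) for all 12935 accessible coding genes. Of the 90 accessible members, 66 (73.3%) lay above that overall median and 29 (32.2%) above the overall upper quartile of 10.7. The highest member score was 21.2 and the highest over all coding genes 58.3. The accessible share was complete in complexes I (36 of 36), II (4 of 4), III (8 of 8) and V (16 of 16), and it was 11 of 12 for assembly factors and 14 of 20 for complex IV.

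**Figure D1:**
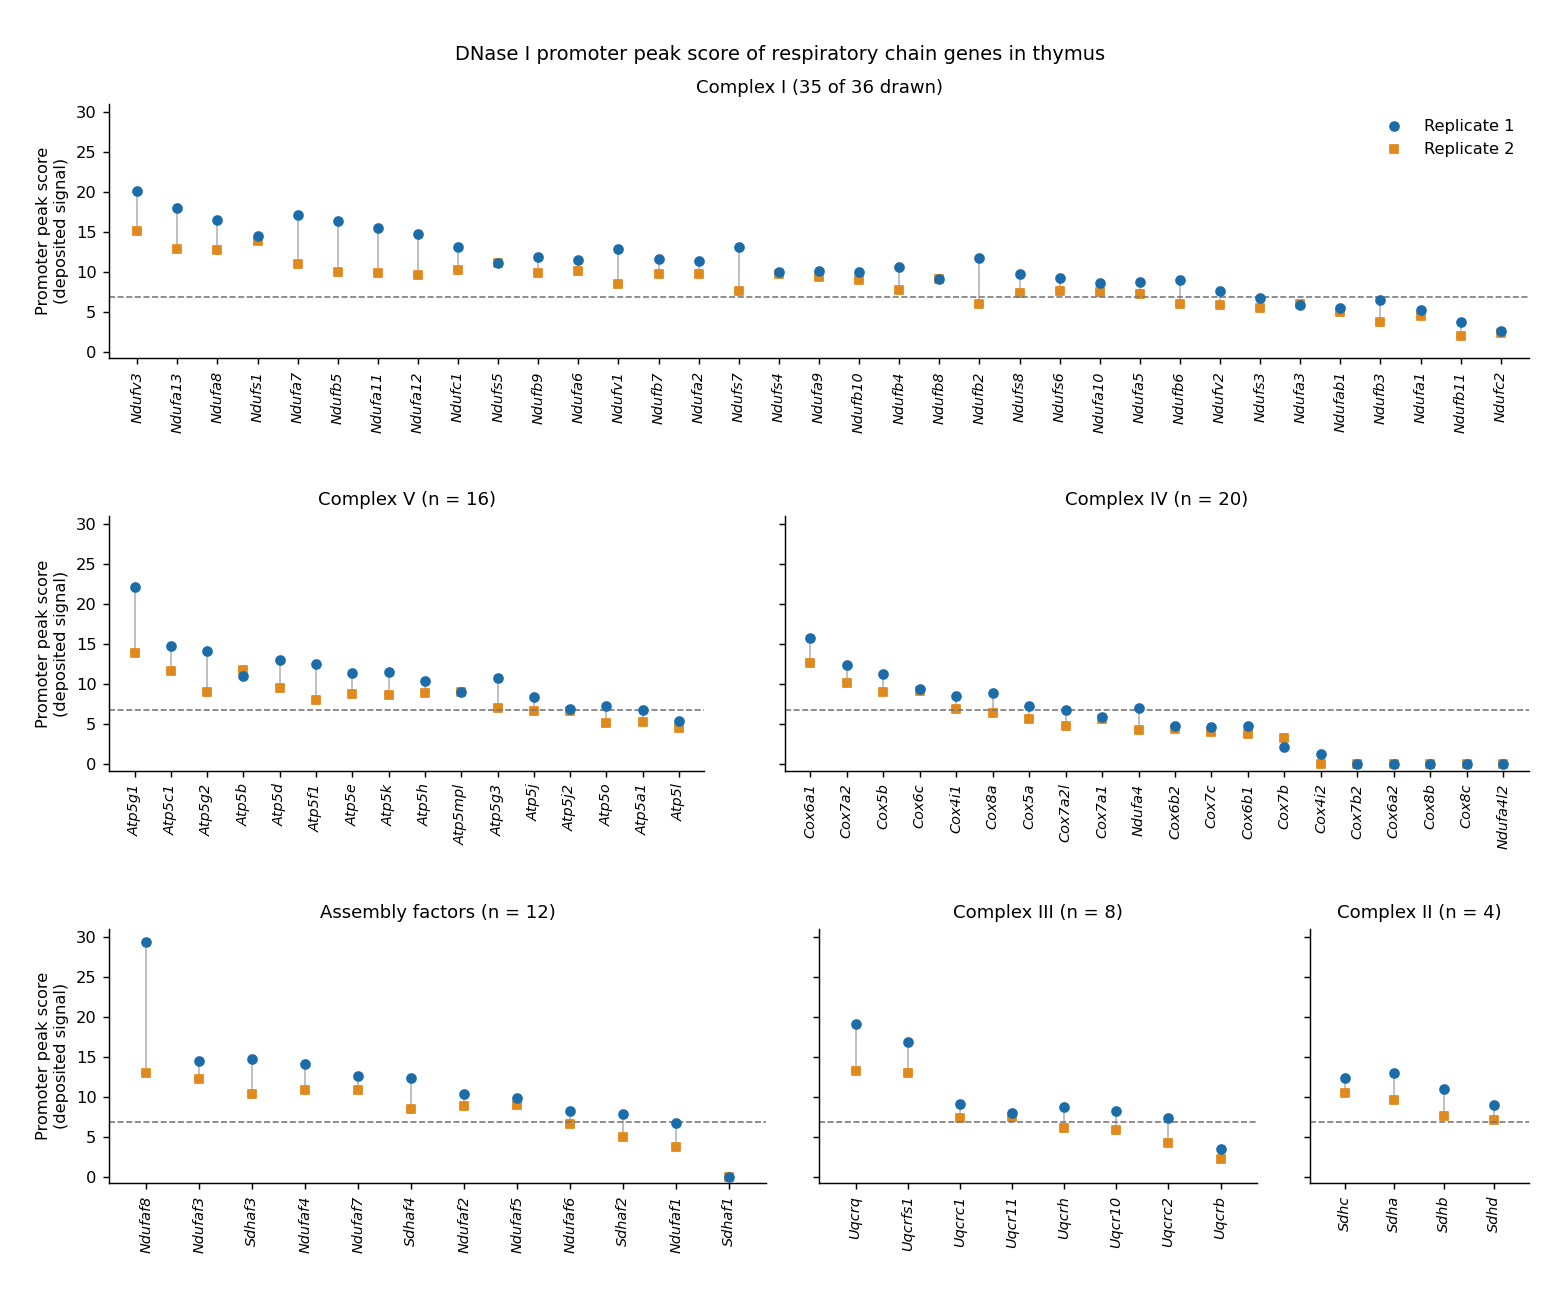
Promoter peak score (deposited signal) of members in replicate 1 (circles) and replicate 2 (squares), sorted by mean within each complex and the assembly factors. Not drawn are 1 complex I member, Atp5s and the Atp5o readthrough entry. The dashed line is the median of all accessible coding genes, 6.83. Among the members drawn, those at 0 in both replicates are 5 isoforms of complex IV and Sdhaf1, and Cox4i2 is at 0 in replicate 2 alone.

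Complex I, the NADH dehydrogenase, had a median score of 9.81 over its 36 members, and 28 of them lay above the median of accessible coding genes. The highest were accessory subunits. Ndufv3, which sits in the NADH-oxidising arm, had 20.2 in replicate 1 and 15.1 in replicate 2 in a peak at chr17:31519941-31520180 (mm10). Ndufa13, a membrane-arm subunit also known as GRIM-19, had 18.0 and 12.8, and Ndufa8, a cysteine-rich subunit facing the intermembrane space, had 16.4 and 12.7. The value of Ndufa13 belongs to a peak centred 743 bp upstream of its nearest TSS and nearer to Yjefn3, and within 500 bp of its own TSSs the highest scores were 2.06 and 1.51. Ndufa11, added because its score also moved with that window, stood at 15.5 and 9.92 within 1000 bp in a peak centred 4 bp from a TSS of Vmac, and at 8.29 and 6.05 within 500 bp. Ndufb11 moved less, with 1.84 within 500 bp and 1.99 within 1000 bp in replicate 2.

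The lowest complex I members were accessory subunits of the membrane arm. Ndufc2 had 2.68 in replicate 1 and 2.34 in replicate 2, Ndufb11 had 3.73 and 1.99, and Ndufa1 had 5.32 and 4.45. The Ndufb11 values came from different peaks, chrX:20617021-20618100 in replicate 1 and chrX:20618161-20618360 in replicate 2. The 7 nuclear core subunits, which carry the flavin and iron-sulphur centres, had a median of 10.4, against 9.74 for the 29 accessory subunits. Their order ran from Ndufs1 at 14.2 ± 0.43 down to Ndufs3 at 6.15 ± 0.839 (mean ± SD, n = 2), within the accessory range of 2.51 to 17.6.

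Complex II, succinate dehydrogenase, showed the narrowest range, from 7.97 to 11.4, but it also has the fewest genes, 4, and a range widens with their number. Sdhc, a membrane anchor, had 12.3 in replicate 1 and 10.5 in replicate 2. Sdha, the flavoprotein, had 13.0 and 9.57, Sdhb, the iron-sulphur subunit, had 10.9 and 7.59, and Sdhd, the other anchor, had 8.90 and 7.04. Both Sdhc values lay between those of Sdha, and all 4 genes kept every value above the median of accessible coding genes.

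Complex III, the cytochrome bc1 complex, had a median of 7.52, and 6 of its 8 members exceeded the overall median. Uqcrq, a small subunit, had 19.1 in replicate 1 and 13.2 in replicate 2, although its peak, chr11:53430901-53431260, is centred 260 bp from its TSS and 68 bp from that of Gdf9. Uqcrfs1, the Rieske iron-sulphur protein, had 16.8 and 12.9 in a peak centred 1 bp from its TSS. Uqcrc1, a structural core protein, followed at 9.07 and 7.38. At the low end were Uqcr10 with 8.24 and 5.80, Uqcrc2, the other structural core protein, with 7.30 and 4.24, and Uqcrb, a subunit near the quinone site, with 3.44 and 2.24.

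Complex V, the ATP synthase, had a median of 9.89, and 12 of its 16 members exceeded the overall median. Atp5g1, which encodes the proton-carrying c subunit, had 22.2 in replicate 1 and 13.9 in replicate 2 at chr11:96075721-96075980. Its paralogues for the same protein were lower, and Atp5g3 was added to complete the set: Atp5g2 had 14.1 and 9.02 and Atp5g3 had 10.8 and 6.98. The order Atp5g1, Atp5g2, Atp5g3 held within each replicate. Atp5c1, the central stalk subunit gamma, had 14.8 and 11.7. The lowest were Atp5l (subunit g) with 5.44 and 4.49, Atp5a1 (the alpha subunit) with 6.73 and 5.32 and Atp5o (the stator protein OSCP) with 7.23 and 5.13. The alpha and beta subunits alternate in equal number in the catalytic head, and Atp5b, encoding beta and added for this comparison, had 11.0 and 11.8 and did not overlap Atp5a1.

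Core subunits were taken as the 7 of complex I, all 4 of complex II, Uqcrfs1 in complex III and 8 of complex V. Those 8 were Atp5a1, Atp5b, Atp5c1, Atp5d, Atp5e, Atp5g1, Atp5g2 and Atp5g3, while Atp5f1 and Atp5o were counted as accessory. The medians depend on this assignment, and no other was tried. Among subunits of complexes I to V, the 20 nuclear core subunits had a median of 10.9 and 17 of them lay above the overall median. The 56 widely used accessory subunits had a median of 8.67. They include the 12 of complex IV (median 7.06), which gave no core subunit, so this comparison mixes role with complex. Core and accessory medians were 10.4 and 9.74 within complex I and 11.4 and 8.27 within complex V. The ranges were 6.03 to 18.0 in core subunits and 2.51 to 17.6 in accessory subunits and overlapped broadly.

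Assembly factors, which build complexes I and II without being part of them, had a median of 10.4 over 11 accessible members. Ndufaf8 had the highest mean of all members, with 29.3 in replicate 1 and 13.0 in replicate 2, and these replicates lay farther apart than those of any other member except Cox7b once the median replicate difference was taken off. Ndufaf3 had 14.5 and 12.2, and Sdhaf3, which acts on the iron-sulphur subunit, had 14.7 and 10.3. The lowest accessible factors were Ndufaf1 with 6.65 and 3.70, Sdhaf2, which attaches flavin to Sdha, with 7.84 and 4.92, and Ndufaf6 with 8.18 and 6.63. Sdhaf1, which also serves iron-sulphur insertion in complex II, had no strict or looser peak within 1000 bp in either replicate. In replicate 1, 185 bases within that distance had a false discovery rate below 0.05, with a lowest value of 0.00383, and replicate 2 had none. A peak of 11.9 and 10.4 lay 1454 bp downstream of its annotated start. Atp5s, the coupling factor gene, had 10.3 and 10.7, and the Atp5o readthrough entry had no peak.

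Complex IV, cytochrome c oxidase, holds all 8 tissue-restricted isoforms of the set. All 12 widely used subunits were accessible, with a median of 7.06, and so were 2 of the 8 restricted isoforms, against 59.0% of all protein-coding genes. Within 2500 bp, 4 of the 8 had a peak in both replicates, with Ndufa4l2 at 9.81 and 8.31 and Cox6a2 at 1.87 and 1.93. Of the 14 accessible subunits, 6 exceeded the overall median. Cox6a1 led with 15.7 in replicate 1 and 12.7 in replicate 2, followed by Cox7a2 with 12.4 and 10.2 and Cox5b with 11.3 and 9.02. The lowest accessible subunits were Cox7b with 2.16 and 3.35, Cox6b1 with 4.81 and 3.82 and Cox7c with 4.67 and 4.07.

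The restricted isoforms differed among themselves. Cox7a1, the heart and skeletal muscle form of subunit VIIa, was accessible with 5.89 in replicate 1 and 5.65 in replicate 2 at chr7:30184021-30184240, against 12.4 and 10.2 for its partner Cox7a2. Cox6b2, known from testis, had 4.76 and 4.44 at chr7:4753001-4753240, against 4.81 and 3.82 for Cox6b1, so that this isoform and its partner overlapped. Both peaks lay over the isoforms' own starts, at 13 bp and 27 bp, and the nearest TSS of any other gene was 6095 bp and 7313 bp from the peak centre. Cox4i2, a lung form of subunit IV that responds to low oxygen, had a strict peak of 1.24 in replicate 1 and none in replicate 2, where the looser list gave 0.985, against 8.54 and 6.93 for Cox4i1. The lowest false discovery rate at Cox4i2 was 9.59e-06 in replicate 1 and 0.00355 in replicate 2.

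The other 5 isoforms had no strict peak, no looser peak and no base below the 0.05 false discovery rate in either replicate. They were Cox6a2 and Cox8b (heart and muscle), Cox8c and Cox7b2 (testis) and Ndufa4l2 (a hypoxia-induced relative of Ndufa4). Their partners had 15.7 and 12.7 (Cox6a1), 8.90 and 6.41 (Cox8a), 2.16 and 3.35 (Cox7b) and 7.0 and 4.27 (Ndufa4). Each of these partners was accessible in both replicates. Promoter markers of the tissues that use the restricted forms were mostly at 0, while 59.0% of all protein-coding genes were accessible. Muscle and heart markers were accessible in 2 of 6 cases (Ckm, whose peak of 9.15 and 7.0 is shared with Klc3, and Myl2 at 1.39 and 1.11), and Myh6, Myh7, Tnnt2 and Acta1 were at 0. Testis germ cell markers were accessible in 2 of 6 (Prm1 at 4.64 and 2.81, Dazl at 5.73 and 5.03), with Ddx4, Prm2, Tnp1 and Acrv1 at 0. None of 3 lung epithelium and 2 brown fat markers was accessible. Whether cells of other types contribute to the Cox7a1 and Cox6b2 peaks was not tested, and in whole thymus a site open in few cells and a site weakly open in many cannot be told apart.

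**Figure D2:**
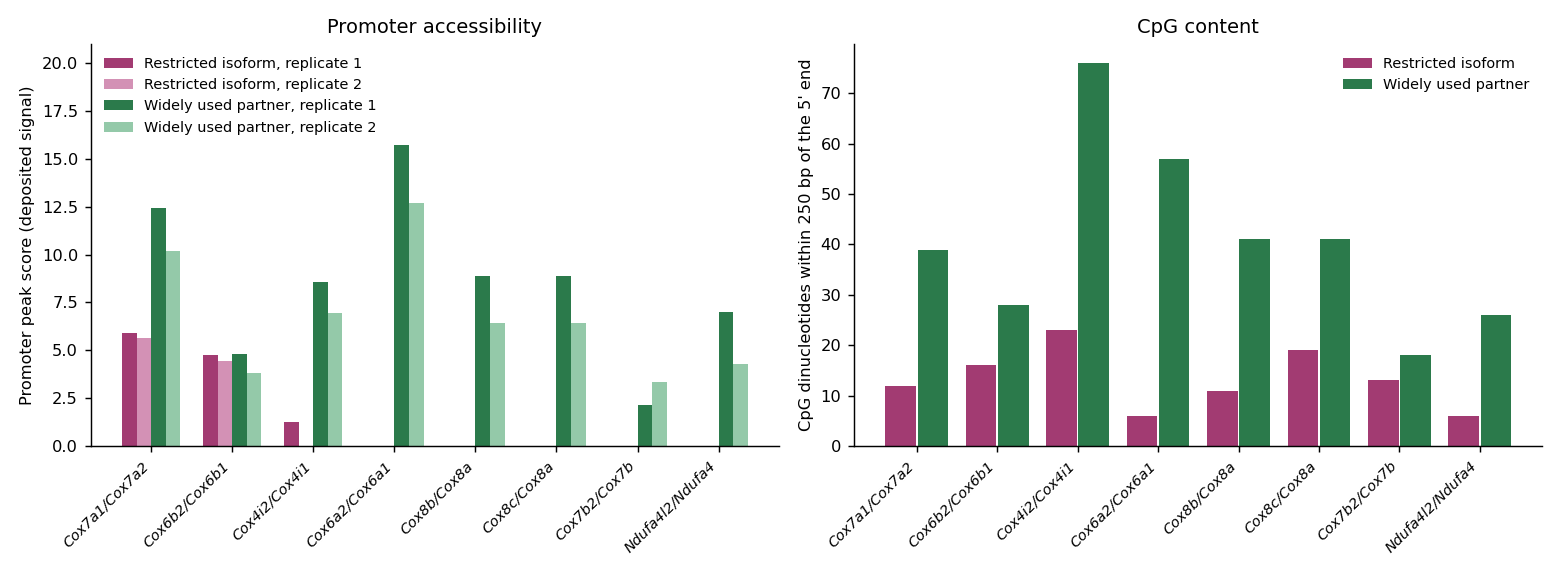
Left, promoter peak score (deposited signal) of each tissue-restricted isoform and its widely used partner in both replicates, with no bar where there was no strict peak. Right, CpG dinucleotides in the 501 bp around the annotated 5' end, where each restricted isoform has fewer than its partner.

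CpG content was lower in the isoforms than in their partners pair by pair, although the ranges of the 2 sets overlapped. Within 250 bp of the annotated 5' end the 8 restricted isoforms had a median of 12.5 CpGs (6 to 23) and their 7 partners 39 (18 to 76). The medians were 34 over all members and 23 over all coding genes. Each isoform had fewer CpGs than its partner. The accessible Cox7a1 (12) and Cox6b2 (16) lay within the range of the 6 others, which were Cox6a2 and Ndufa4l2 (6 each), Cox8b (11), Cox7b2 (13), Cox8c (19) and Cox4i2 (23). The 100 bases before the RefSeq start (GRCm38.p6) show this for 3 pairs, each read 5′ to 3′ on the gene's strand with CpGs in capitals. They are chr7:30184071-30184170 (plus strand, 2 CpGs), chr9:79759854-79759953 (minus, 9), chr7:4753095-4753194 (minus, 4), chr7:30626115-30626214 (minus, 9), chr7:140900447-140900546 (minus, 0) and chr19:7217617-7217716 (minus, 9), in the order listed.
Cox7a1: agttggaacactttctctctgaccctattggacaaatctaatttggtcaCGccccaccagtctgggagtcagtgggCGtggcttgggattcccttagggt
Cox7a2: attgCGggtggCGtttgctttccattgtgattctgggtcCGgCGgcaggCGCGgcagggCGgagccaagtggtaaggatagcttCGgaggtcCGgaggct
Cox6b2: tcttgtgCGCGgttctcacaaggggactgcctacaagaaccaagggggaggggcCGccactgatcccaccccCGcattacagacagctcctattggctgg
Cox6b1: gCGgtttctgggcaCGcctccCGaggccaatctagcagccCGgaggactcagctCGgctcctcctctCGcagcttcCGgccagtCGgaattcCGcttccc
Cox8b: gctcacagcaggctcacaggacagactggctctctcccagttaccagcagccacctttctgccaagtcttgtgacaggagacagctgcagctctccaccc
Cox8a: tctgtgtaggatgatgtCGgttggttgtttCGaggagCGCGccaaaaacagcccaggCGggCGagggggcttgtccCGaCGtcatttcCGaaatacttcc

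The 3 X-linked members were among the weakest accessible promoters. Ndufa1, Ndufb11 and Cox7b had mean scores of 4.88, 2.86 and 2.76, against a median of 9.55 over the 87 accessible autosomal members. The same direction held over all accessible coding genes, with a median of 3.66 for 389 X-linked genes and 7.0 for 12542 autosomal genes. The mice were male and carry 1 X chromosome, and its part in these scores was not tested.

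Repeated sequence was examined because several subunits have processed pseudogenes. Of the 90 members' peaks, 66 consisted wholly of 31-base words that occur once in the genome, and the lowest unique share was 69.8%, at Ndufb11. Among low-scoring members, Ndufb11 (2.86) had this lowest share and Cox7b (2.76) had 85.8%, while Uqcrb (2.84) and Ndufc2 (2.51) had 98.4% and 99.7%. Among other members with low shares, Cox7c (4.37) had 71.9%, Atp5l (4.97) had 71.6%, Ndufa7 (14.1) had 72.1% and Ndufs7 (10.4) had 75.8%. The part of repeated sequence in the scores was not tested.

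The log2 scores of the replicates had a Spearman's rho of 0.906 over the 90 members and 0.975 over all accessible coding genes. After the median replicate difference over all coding genes was taken off, the largest log2 differences, replicate 1 minus replicate 2, were -1.0 for Cox7b, 0.81 for Ndufaf8, 0.60 for Ndufb2, 0.54 for Ndufb11 and 0.48 for Ndufaf1. Ndufb2 had 11.8 in replicate 1 and 6.01 in replicate 2. Cox7b, at 2.16 and 3.35, was the member most raised in replicate 2. Its peaks, chrX:106015761-106016000 in replicate 1 and chrX:106015641-106015800 in replicate 2, overlapped only in part. The SD of the log2 difference was 0.27 over the members and 0.30 over all accessible coding genes.

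Promoter peaks of the members were often shared with a neighbouring gene. A TSS of another coding gene lay within 1000 bp of the peak at 36 of 90 members (40%), against 21.1% of all accessible coding genes. These 36 members formed 38 pairs, and in 37 the genes lay head to head on opposite strands, with a median distance of 83 bp between their closest TSSs. Complex II had 3 of 4 members in such pairs, complex I 15 of 36 and complex IV 2 of 14. The highest shared peaks were those of Ndufaf8 with Tepsin, Ndufv3 with Wdr4, Uqcrq with Gdf9, Ndufa13 with Tssk6 and Yjefn3, and Ndufa8 with Morn5. At 15 members the peak centre was nearer to the neighbour's TSS than to their own, and which gene the score belongs to cannot be told apart.

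Several neighbours belong to mitochondria or to protein synthesis, and these were chosen after their values were seen. Ndufb5 shares its peak with Mrpl47 (starts 20 bp apart, 16.4 in replicate 1 and 10.0 in replicate 2) and Ndufs6 with Mrpl36 (29 bp, 9.32 and 7.59), both encoding mitochondrial ribosomal proteins. Sdhd shares one with Timm8b (98 bp, 8.90 and 7.04), a chaperone of mitochondrial import, and Ndufa7 with Rps28 (10 bp, 17.1 and 11.0), a cytosolic ribosomal protein. Atp5j, a stalk subunit of ATP synthase, shares its peak with Gabpa, the gene of the DNA-binding subunit of GABP, at 31 bp (8.41 and 6.68). Other neighbours are known from single tissues. Gdf9 is an oocyte growth factor and Tssk6 a testis kinase, so a peak counted for those genes here is the one counted for Uqcrq and Ndufa13.

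Footprints, short stretches protected from cutting inside an accessible region, were found in the peaks of all 90 accessible members in both replicates, against 99.0% of all accessible coding promoters. The median was 5 per peak in each replicate for members and for all coding genes alike. Ndufb11 had 18 in replicate 1 and 4 in replicate 2, Ndufa4 had 10 and 12, Sdhaf2 had 16 and 4, Uqcrq had 10 and 8, and Cox4i1 had 11 and 7. The peaks of Ndufb11 and Sdhaf2 were also wider in replicate 1, at 1080 bp and 760 bp, against 200 bp and 260 bp in replicate 2. Across the 90 members, which are genes of the same libraries, Spearman's rho between score and footprint number was -0.06, and over all accessible coding genes it was 0.26.

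**Figure D3:**
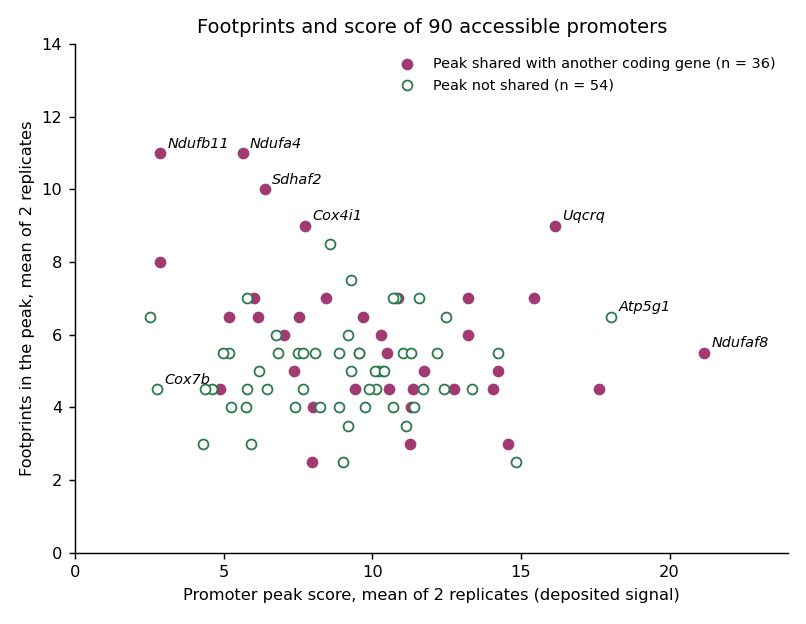
Mean promoter peak score (deposited signal, horizontal) and mean number of footprints in the peak (vertical) for the 90 accessible members, with peaks shared with another coding gene filled (n = 36) and others open (n = 54). Footprint number does not rise with score, and the peaks richest in footprints are shared ones.

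The members' promoters were then read for the motifs of their known regulators. A match was an exact occurrence on either strand within 150 bp of the peak centre, and it is a description of letters, not a bound site. YY1 (AANATGGC) matched at 32 of 90 members (35.6%), against 10.1% of all accessible coding promoters. NRF1 (GCGCATGC) matched at 12 members (13.3%), against 6.15%, and ETS (CCGGAAG), the motif class of GABP, at 25 members (27.8%), against 20.7%. Of the 10 motifs read, YY1 had the widest gap in percentage points. At 37 members (41.1%) none of the 3 motifs was found, against 67.4% of all accessible coding promoters. Exactly 2 kinds were found at 14 members (15.6%, against 4.11%), and Sdhb held all 3 (1.11%, against 0.131%).

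Of the other motifs, some were more and some less frequent in members than elsewhere. The SP motif (GGGGCGGGG) matched at 13 members (14.4%), against 23.3%, and the CCAAT box (CCAATCA) at 5 (5.56%), against 11.0%. CREB (TGACGTCA) matched at 6 (6.67%), against 3.89%, and ZNF143 (ACTACAA) at 5 (5.56%), also against 3.89%. RUNX (AACCACA), a motif of thymocyte enhancers, matched at 3 (3.33%), against 3.51%, and USF (CACGTGAC) at 1 (1.11%), against 4.53%. The estrogen-related receptor motif ESRR (TCAAGGTCA) matched at 2 members, Atp5g3 and Sdhd (2.22%), against 0.162%, or 21 of 12935 promoters, and neither match lay in a footprint. GC content of the 301 bp read was lower in members, with a median of 61.5%, against 64.8%, and its part in the SP and CCAAT counts was not tested.

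**Figure D4:**
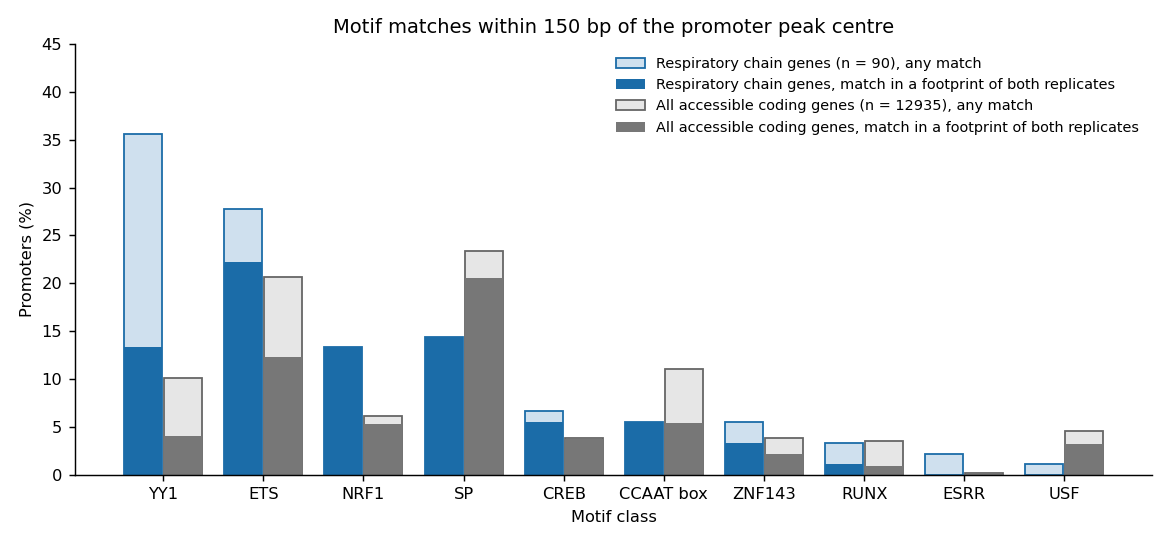
Percent of accessible promoters with a match to each motif, for respiratory chain genes (blue, n = 90) and all accessible coding genes (grey, n = 12935). The solid part of each bar is the share with a match inside a footprint of both replicates, for example 13.3% and 4.02% for YY1.

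Matches were set against the footprints, counting any overlap. All 12 members with an NRF1 match had one in a footprint of both replicates (13.3% of members, against 5.33% of accessible coding promoters). An ETS match lay in a footprint of both replicates at 20 members (22.2%, against 12.3%) and a YY1 match at 12 (13.3%, against 4.02%). Of all matches, 20 of 20 for NRF1, 22 of 31 for ETS and 13 of 33 for YY1 were inside footprints of both replicates, and over all accessible coding promoters these shares were 89.1%, 56.0% and 38.9%. Overlapping NRF1 matches on the 2 strands were counted apart, in members and in all coding promoters. This occurred at Ndufaf4, Ndufaf5, Atp5k, Cox6a1, Ndufa13, Uqcrc1 and Atp5g2, so the 20 NRF1 matches stand for fewer separate sites. YY1 matches were covered in replicate 2 more often than in replicate 1, at 21 and 15 of 33, and the same direction held over all accessible coding promoters, at 56.6% and 46.2% of matches.

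The motif counts of each complex overlapped, and differences between complexes were not tested. YY1, found at 10.1% of all accessible coding promoters, matched at 15 of 36 complex I members, 7 of 16 in complex V, 4 of 8 in complex III, 2 of 4 in complex II, 2 of 11 accessible assembly factors and 2 of 14 accessible complex IV members. Among the 20 core subunits it matched at 11 (55.0%), and among the 7 core subunits of complex I at 5. ETS, found at 20.7% of those promoters, matched at 5 of 14 accessible complex IV members and 6 of 16 in complex V, and at 6 of 36 in complex I, 2 of 4 in complex II, 2 of 8 in complex III and 4 of 11 accessible assembly factors. NRF1, found at 6.15% of those promoters, had 3 in complex I, 1 in complex II and 2 in each of complexes III, IV and V and the assembly factors. The accessible isoforms Cox7a1 and Cox6b2 held none of the 3 motifs.

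YY1 matches lay mostly close to a TSS. Of 33 matches, 25 (75.8%) lay within 50 bp of an annotated TSS, against 58.2% over all accessible coding promoters, and 23 (69.7%) ran on the gene's strand, a share close to the 64.1% over all accessible coding promoters. The letters of the motif contain ATG, and in 17 of 33 matches (51.5%) this was the annotated start codon of the gene, against 29.2% over all accessible coding promoters. Such matches lie on the gene's strand by construction. Those 17 genes, among them Atp5j2, Atp5o, Ndufa7, Ndufc1, Sdhb, Uqcrb and Uqcrc1, therefore carry a sequence that is read both as a motif and as the start of the protein. Without start codon matches, 15 members (16.7%) held YY1, against 7.12%.

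**Figure D5:**
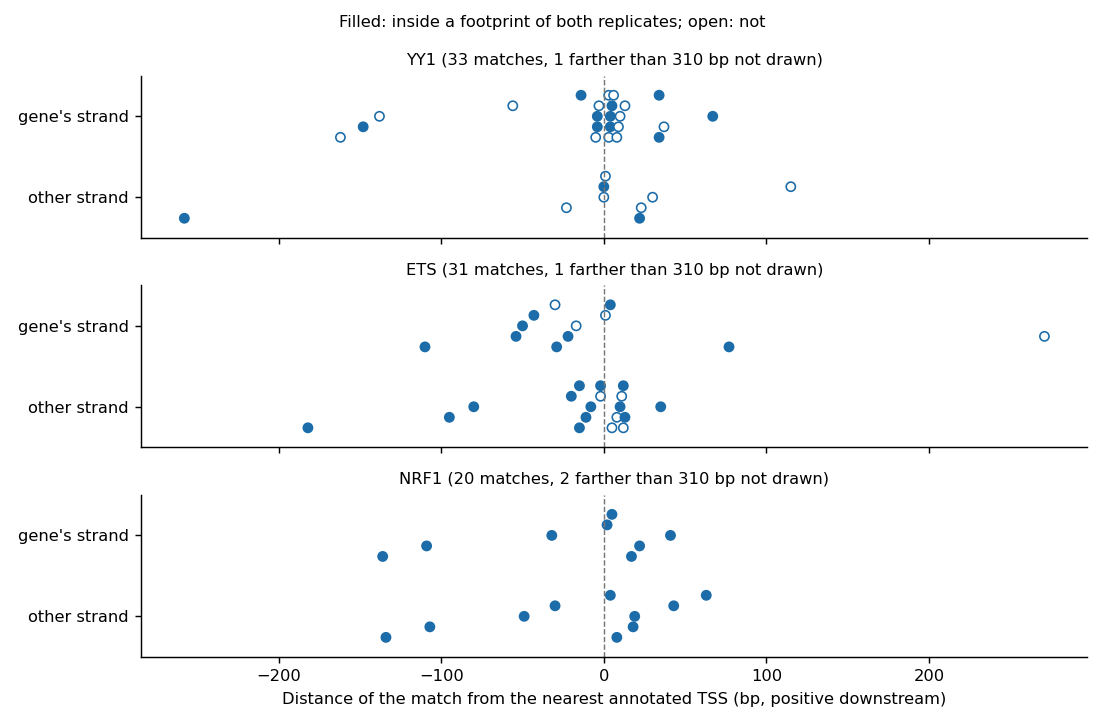
Distance of each YY1, ETS and NRF1 match from the nearest annotated TSS (bp, positive downstream), with matches on the gene's strand above and on the other strand below. Filled points lie in a footprint of both replicates, and YY1 matches on the gene's strand gather at the TSS.

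NRF1 matches were all inside footprints of both replicates, and the sites at the 3 highest-scoring members are shown first, each with 30 bases read on the gene's strand (GRCm38.p6) and the match in capitals. They lie at chr8:69903320-69903349 (minus strand), chr2:36049328-36049357 (minus) and chr5:115349100-115349129 (minus). At Ndufa13 and Cox6a1 the motif matched on both strands in overlap, so that 10 bases are in capitals. The Ndufa13 site lies at -777 bp from its nearest TSS, in the upstream peak.
Ndufa13, NRF1: atcgaggatGCGCATGCGCtctccagcaat
Ndufa8, NRF1: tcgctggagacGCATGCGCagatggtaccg
Cox6a1, NRF1: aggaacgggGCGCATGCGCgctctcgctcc

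ETS sites inside footprints are shown with 29 bases, again for the 3 highest members and then for Atp5j and Sdhd, added because they share peaks with Gabpa and Timm8b. Their positions are chr1:63176821-63176849 (minus strand), chr5:115348957-115348985 (minus), chr6:6955880-6955908 (plus), chr16:84835020-84835048 (minus) and chr9:50603878-50603906 (minus). Where the motif runs on the other strand it reads CTTCCGG.
Ndufs1, ETS: ggcctcggctaCTTCCGGcggaactgcag
Cox6a1, ETS: ccccatttccgCTTCCGGcgcgccggtgt
Sdhaf3, ETS: aatccgggtttCCGGAAGgacaagattct
Atp5j, ETS: agctgagggacCCGGAAGcacttaccctc
Sdhd, ETS: ccgtctcctgcCTTCCGGttcacgcttca

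YY1 sites inside footprints are shown with 30 bases for the 3 highest members and then for Uqcrc1, Atp5o and Ndufc1, added because the ATG in capitals is their start codon. Their positions are chr11:120098933-120098962 (plus strand), chr11:96075913-96075942 (minus), chr1:63176654-63176683 (minus), chr9:108936705-108936734 (plus), chr16:91931540-91931569 (minus) and chr3:51408915-51408944 (minus). At Atp5g1 and Ndufs1 the motif runs on the other strand. Uqcrc1 also held NRF1 matches in footprints 32 bp upstream of its TSS, at chr9:108936667-108936696.
Ndufaf8, YY1: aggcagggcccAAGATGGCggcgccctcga
Atp5g1, YY1: gcaccttggtcGCCATTTTgtgttgaaggt
Ndufs1, YY1: ttgccgtggccGCCATATTgacttagcggc
Uqcrc1, YY1: acggaagttagAAGATGGCggcgtccgcag
Atp5o, YY1: ccgcccgggaaAAGATGGCcgcgcctgcag
Ndufc1, YY1: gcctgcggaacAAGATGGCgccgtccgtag
Uqcrc1, NRF1: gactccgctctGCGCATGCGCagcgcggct

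Shape and surroundings of the members' peaks were close to those of other promoters. The peak centre lay a median of 32 bp from the nearest TSS, against 58 bp for all accessible coding genes, and the median width was 230 bp, against 240 bp. The median number of distal accessible regions within 50000 bp was 2 for members and 2 for all coding genes, with 10 the most at any member and 30 at any coding gene.

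Other genes of respiration outside the symbol rule were taken from a list of 50, of which 49 were found by name. Of these 48 were accessible, against 59.0% of all protein-coding genes. The median score was 8.74 over the 49, against 1.96 over all coding genes, with inaccessible genes set to 0. The exception was Cyct, the testis cytochrome c, while the somatic gene Cycs had 16.3 in replicate 1 and 12.3 in replicate 2. Cyc1, cytochrome c1 of complex III, was lower, with 4.13 and 3.56. Among the regulators, Esrra had 29.5 and 22.0, Yy1 had 18.2 and 13.1, Tfam, the mitochondrial DNA packaging factor, had 15.8 and 14.2, and Nrf1 had 11.0 and 7.48. Ppargc1a, the coactivator prominent in brown fat and muscle, had the lowest accessible promoter of the list, with 0.333 and 0.681, and its relatives Ppargc1b and Pprc1 had 8.01 and 6.30 and 10.7 and 7.82.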

How the data were processed

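The deposited files, on mm10 per the labels, hold DNase I-seq intervals for 2 thymus samples of 1 group. Each peak carries a deposited signal score, a whole multiple of 1 step whose scale the authors' files do not state. The median strict peak came to 213 steps in replicate 1 and 226 in replicate 2. Strict and looser peak lists were called per sample. FDR files deposited by the authors give a p-value of the false discovery rate kind per stretch of bases, listed below 0.05, and deposited footprints were used as positions. The aligner and the callers were not given in the sources used here.

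Overlapping strict peaks were joined and the highest score within 1000 bp of any GENCODE M21 TSS was taken per gene. Replicate values are given, with the mean ± SD over n = 2 in places. Motifs were read from GRCm38.p6 in 301 bp, and promoter sequences came from RefSeq, which matched 78 of 97 member symbols. Distal regions were peaks of both replicates over 1000 bp from any TSS.

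Named members followed a fixed rule: those without a peak, all isoforms and partners, the 3 highest and 3 lowest per complex, the 5 richest in footprints, the 5 with the largest replicate difference and the 5 highest with a shared peak. Other members named were chosen after their values were seen, and withheld items are not reported here. Members, lists, motifs and rules were chosen with earlier results of these data known. The counting steps were tested on simulated data. Alternatives changed the window, the TSS, the peak list, the footprint overlap, the motif, the reach and the replicates. Software was Python 3.11.15 with the packages numpy (2.4.6), pandas (2.3.3), pysam (0.24.0), matplotlib (3.10.9) and scipy (1.17.1).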

Additional observations from a re-analysis of the deposited data

How the results depend on the processing

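Of 101 recomputed values of 14 results, 95 stayed within their replicate spread or within 1.5 times the count reported. These limits are wide, and most counts could hardly pass them, so the 95 is not a measure of stability. The median score with 1 replicate left out, 7.61 without replicate 1 and 9.82 without replicate 2, was set against the spread of those same replicates. With 1 mismatch allowed outside the central CATG, NRF1 matched at 18 members and 1588 accessible coding promoters, against 12 and 795 for exact matches. Exact NRF1 matches within 250 bp of the peak centre numbered 12 and 908. The ETS and YY1 counts were not recomputed under other settings. With a 2500 bp window, accessible restricted isoforms numbered 4, as Cox6a2 (1.87 in replicate 1 and 1.93 in replicate 2) and Ndufa4l2 (9.81 and 8.31) gained a peak at -2004 bp and -1966 bp from the nearest TSS, and Sdhaf1 gained one too. With footprints counted when wholly inside the peak, the median was 4.5. The median number of distal regions was 1 within 25000 bp, 4 within 100000 bp, and 2 to 3 when 1 replicate was left out. As a percentile among a replicate's peaks, the members' median was 93.2, against 60.1 over all coding genes, with genes lacking a peak included. Among accessible promoters alone, the medians were closer, at 93.6 for members and 89.1 for all coding genes. The looser list, or leaving out replicate 2, added Cox4i2, and using the gene's 5' end alone removed 2 members. No paired analysis was possible because there is 1 group. Depth is not stated in the files, so a member without a peak was not detectable here, which does not show that it is closed.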
